A study of Homo sapiens with 92 samples.

Results

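New transcription was compared between cells depleted of NIPBL from mitosis onwards and their vehicle controls, 120 min after release from mitotic arrest, with new RNA labelled during the last 15 min. The comparison took every library whose title names clone NIPBL-D7, 120 min and 15 min of 4-thiouridine (4sU) without naming release. That gave 7 of the 92 libraries of the series, 3 with dTAGV-1 (replicates 1, 2 and 4) and 4 with DMSO (replicates 1 to 4). The cells were hTERT RPE-1, a human retinal pigment epithelial line immortalised with telomerase, and all came from 1 clone. Its genotype is mGreenLantern-P2A-FKBP12(F36V)-NIPBL, so NIPBL carries a degron tag in both arms. The compound dTAGV-1 recruits the tagged protein to the VHL ubiquitin ligase for destruction, and DMSO is the vehicle. Both arms went through a double thymidine block, then 120 min of nocodazole at 20 ng/ml together with dTAGV-1 or DMSO, mitotic shake-off, and 120 min in fresh medium with the same addition. Both arms also received 4sU at 100 µM. Further comparisons with dTAGV-1 serve as reference here, namely 60 min after release with the same label (4 and 4 libraries), 120 min after release with 4sU throughout (3 and 3), and 120 min after release with dTAGV-1 first given at release (3 and 3).

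NIPBL loads cohesin onto chromosomes and stimulates the ring to extrude DNA into loops, which can bring distant enhancers close to promoters. During mitosis most transcription stops and cohesin leaves the chromosome arms, and in early G1 loops and transcription are both built up again. SLAM-seq measures newly made RNA, because iodoacetamide alkylates incorporated 4sU and the sequencer then reads it as a T-to-C conversion. The values below are converted reads per gene, given as counts-per-million (CPM), taken over the converted reads of a library after TMM scaling.

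The libraries held 0.644 to 2.77 M converted reads out of 15.6 to 65.5 M reads. DMSO replicate 3 stood apart. It was the shallowest library, 13.5% of its converted reads lay in 10 genes against 3.29% to 3.75% in the others, and its log2 CPM correlated with the other 6 libraries at 0.859 to 0.898. Replicate 4 of dTAGV-1 correlated with the DMSO and dTAGV-1 libraries other than that one at 0.906 to 0.930, while the remaining 5 correlated among themselves at 0.957 to 0.977. Results are therefore given with and without DMSO replicate 3. The share of reads with a conversion averaged 3.76% ± 0.428 (SD, n = 3) in the depleted arm and 3.75% ± 0.482 (n = 4) in the control arm, a difference smaller than the spread between libraries (two-sided exact permutation test, p = 0.971, where the smallest possible p is 0.0571). No library without 4sU was analysed here, so the part of the converted reads that is background is unknown. At 0 min, in arrested cells with the same label, the share ran from 2.44% to 3.32%. In the 7 libraries it ran from 3.05% to 4.23%, so the ranges overlapped. Values read below as new RNA may thus hold much background, and its size was not tested. The labels do not say whether replicates were separate cultures. The p-values per gene of this comparison rest on the spread among all 36 libraries of the short-label mitosis series, which may be technical. In a fit of the 7 libraries alone, 38 genes passed in place of 135. In bulk libraries, fewer cells transcribing a gene and less new RNA per cell cannot be told apart.

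Depletion takes place at the protein level and was not measured by these RNA counts. NIPBL stood at 315, 358, 152 and 326 CPM in DMSO replicates 1 to 4 and at 376, 455 and 337 CPM in dTAGV-1 replicates 1, 2 and 4. The arms overlapped, and the log2 difference of 0.42 ± 0.22 (SE) did not pass (edgeR quasi-likelihood test, adjusted p = 0.406). Of 10 markers of retinal pigment epithelium, OTX2 and MITF passed the filter on low counts. RPE65, TYR, TYRP1, TTR, BEST1, RLBP1, PMEL and SERPINF1 did not, and TTR had no converted read in any of the 7 libraries. The 6 markers of epithelial or mesenchymal cells VIM, KRT8, KRT18, CDH2, THY1 and COL1A1 were all tested and none was called. Summed, the 6 mitotic markers CCNB1, CDC20, PLK1, AURKA, TOP2A and CENPF ran from 956 to 1613 CPM without TMM scaling in DMSO and from 867 to 1344 with dTAGV-1, and none was called. The ranges overlapped. Their log2 changes were −0.52 for CCNB1, −0.46 for CDC20, −0.43 for PLK1, −0.21 for TOP2A, −0.20 for AURKA and 0.06 for CENPF, and 27 of 30 genes of a list of mitotic genes lay below 0, beside 6765 of 14202 genes tested. Of markers of other cell types, none of 6 for cardiomyocytes, 4 for pluripotent cells or 3 for blood passed the filter, and 1 of 3 for endothelium and 4 of 6 for neurons did, with none called. The part that unequal exit from mitosis has in the results was not tested.

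With NIPBL depleted, new RNA of several secreted signals and of the transcription factor gene SNAI2 was lower. New RNA of 4 genes of a list of eye field and retinal factors was higher. Out of 14202 genes tested, 135 passed an adjusted p of 0.05 (0.951%; edgeR's quasi-likelihood test, two-sided, Benjamini-Hochberg), of which 88 fell (0.62%) and 47 rose (0.331%). Without DMSO replicate 3, 130 fell (0.92%) and 34 rose (0.241%) of 14123 tested. Of the 88 genes that fell, 83 did so again, and of the 47 that rose, 32. Leaving out dTAGV-1 replicate 4 gave 53 lower (0.362%) and 37 higher (0.253%), and leaving out both gave 82 (0.564%) and 24 (0.165%). Of all single libraries left out, dTAGV-1 replicate 2 left the fewest rises, with 67 lower and 11 higher of 14829 tested. Whichever 1 of the 7 libraries was left out, 43 of the 88 falls and 9 of the 47 rises stayed called. In CPM, the libraries of the arms did not overlap for 1095 genes, which is 7.71% of those tested, so separation of the arms alone is common in these data. Genes named below for the size of their change were picked with arms that do not overlap. Their separation is therefore a description and adds no support.

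**Figure D1:**
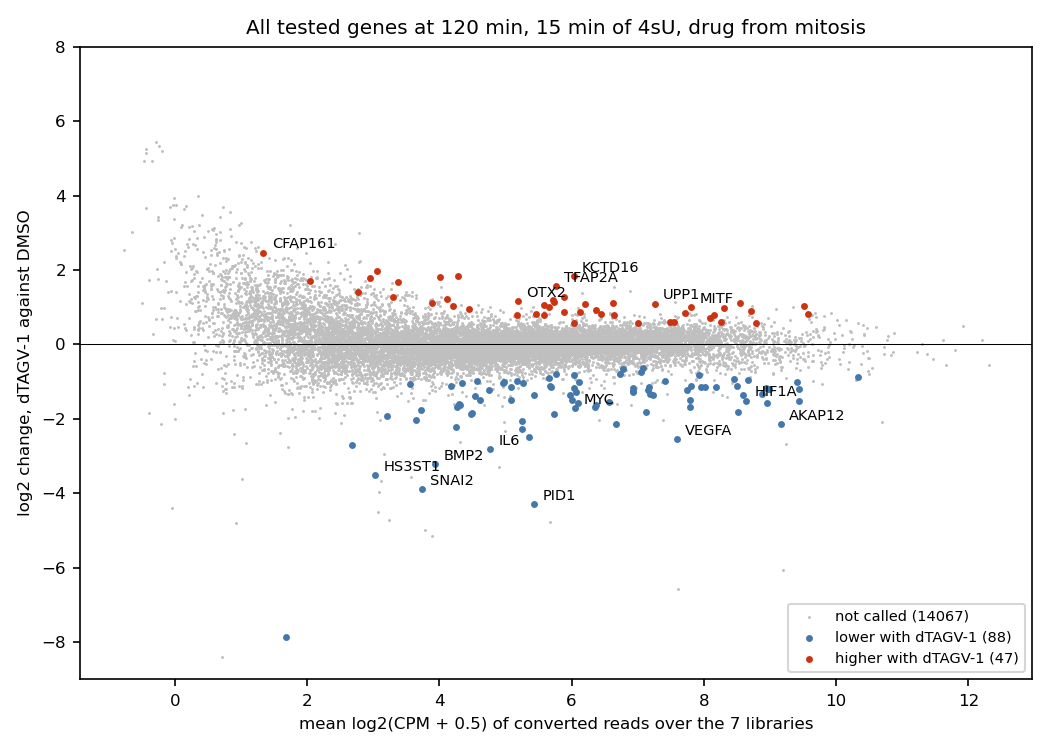
Each point is 1 of 14202 tested genes, with its mean log2(CPM + 0.5) of converted reads over the 7 libraries on the horizontal axis and its log2 change with dTAGV-1 on the vertical axis. Blue marks the 88 genes called lower and red the 47 called higher, with several named, and the falls reach further from 0 than the rises at middle and high levels.

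Among secreted signals, VEGFA, the growth factor of blood vessels, had the smallest adjusted p. It stood at 347, 313, 543 and 473 CPM in DMSO replicates 1 to 4 and at 55.9, 72.9 and 86.2 CPM with dTAGV-1. Each dTAGV-1 library lay far below the lowest DMSO library, with a log2 change of −2.54 ± 0.26 (adjusted p = 1.77e-07). IL6, the interleukin of acute inflammation (hg38 chromosome 7, 22725884 to 22732002), was at 84.9, 63.8, 66.6 and 39.2 CPM in DMSO against 12.8, 5.94 and 8.38 CPM, a change of −2.82 ± 0.52 (adjusted p = 0.00161). BMP2, a bone morphogenetic protein, went from 23.7, 37.2, 46.6 and 47 CPM to 4.26, 3.17 and 4.93 CPM, at −3.21 ± 0.54 (adjusted p = 0.000664). Here too the arms were well separated, and replicate 3 of DMSO lay within the range of its group for both genes.

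Interleukin-1 genes fell as a neighbouring pair. IL1A was at 130, 217, 185 and 250 CPM in DMSO and 33.2, 41.6 and 60.1 CPM with dTAGV-1, and IL1B at 48.7, 75, 93.2 and 88.1 CPM against 12.8, 12.7 and 21.2 CPM. The arms of both were apart, with changes of −2.13 ± 0.49 and −2.28 ± 0.54 (adjusted p = 0.0172 and 0.0224). These 2 calls were thin, since IL1A lost its call without dTAGV-1 replicate 1 (adjusted p = 0.122), dTAGV-1 replicate 2 (0.0986) or DMSO replicate 4 (0.0625), and IL1B without dTAGV-1 replicate 2 (0.132), dTAGV-1 replicate 1 (0.122), DMSO replicate 4 (0.0666) or dTAGV-1 replicate 4 (0.0533). PTX3, a secreted pentraxin of innate immunity, was at 62.5, 114, 188 and 207 CPM in DMSO and 51.2, 35.7 and 46.3 CPM with dTAGV-1. Its DMSO libraries spread widely, the lowest of them stood close to the highest dTAGV-1 library, and the change was −1.67 ± 0.26 (adjusted p = 0.000223).

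The neurotrophin gene BDNF fell from 36.1 ± 11.8 CPM (SD, n = 4) to 7.96 ± 0.401 CPM (n = 3), and HBEGF, a ligand of the EGF receptor, from 175 ± 18.4 to 76.7 ± 13.9 CPM. Their log2 changes were −2.21 ± 0.35 and −1.18 ± 0.20 (adjusted p = 0.000278 and 0.000766). GREM1, a secreted inhibitor of BMPs, fell by 1.24 ± 0.26 on the log2 scale (adjusted p = 0.00788), and the call was lost without dTAGV-1 replicate 2 (0.0694) or 4 (0.0612). F3, tissue factor, which starts blood clotting, was called at −1.21 ± 0.27 (adjusted p = 0.0137). Its DMSO value was 1264 CPM in replicate 3 against 423, 505 and 873 CPM in the others. Without that replicate the change was −0.86 (adjusted p = 0.0874), and the call was also lost without dTAGV-1 replicate 1 (0.111), dTAGV-1 replicate 4 (0.0719) or DMSO replicate 4 (0.0513).

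AKAP12, a scaffold of protein kinases A and C (hg38 chromosome 6, 151239999 to 151358557), had the smallest adjusted p of all genes, 3.78e-08. It was at 894, 1003, 1012 and 1440 CPM in DMSO and 278, 231 and 235 CPM with dTAGV-1, a change of −2.13 ± 0.20. The DMSO libraries were spread widely, and the dTAGV-1 libraries lay together far below them. RGS4, which shortens signals of G proteins, was at 486, 421, 1076 and 647 CPM in DMSO against 158, 229 and 170 CPM, at −1.81 ± 0.34 (adjusted p = 0.00198). Replicate 3 of DMSO was the highest library there, and without it the change was −1.48 (adjusted p = 0.00958). PLPP3, a phosphatase of lysophosphatidic acid, was at 79.7, 166, 36.6 and 79 CPM in DMSO against 17.1, 17.4 and 15.3 CPM, at −2.49 ± 0.32 (adjusted p = 9.26e-06).

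Among receptor genes named by the rule, TGFBR2, a TGF-beta receptor, was at 302, 589, 175 and 478 CPM in DMSO and 171, 212 and 147 CPM with dTAGV-1. The arms overlapped through DMSO replicate 3. The change was −1.14 ± 0.23 (adjusted p = 0.00473) with that replicate and −1.37 (3.14e-05) without it, while without dTAGV-1 replicate 4 the call was lost (0.0654). LPAR1, a receptor of lysophosphatidic acid, was at 214, 308, 118 and 305 CPM against 130, 131 and 103 CPM and overlapped in the same way. It was called at −0.98 ± 0.23 (adjusted p = 0.0213). Leaving out DMSO replicate 3 gave −1.19 (0.000661), and leaving out DMSO replicate 2, DMSO replicate 4 or dTAGV-1 replicate 1, 2 or 4 ended the call (0.0809, 0.107, 0.0798, 0.0757 and 0.161).

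Of the transcription factor genes that fell, SNAI2 changed most of all 59 genes named by rule. SNAI2 encodes Slug, a repressor of epithelial genes in mesenchymal cells. It stood at 30.9, 48.4, 58.3 and 35.6 CPM in DMSO and at 0.947, 4.75 and 2.46 CPM with dTAGV-1, which is −3.89 ± 0.47 (adjusted p = 3.33e-06). MYC, a driver of growth, was at 74.4, 92.5, 158 and 127 CPM in DMSO and 30.8, 36.1 and 34 CPM with dTAGV-1, at −1.72 ± 0.29 (adjusted p = 0.00074). The dTAGV-1 libraries of MYC lay within a few CPM of each other, and all were below the lowest DMSO library. HIF1A, the oxygen-regulated factor (hg38 chromosome 14, 61695513 to 61748259), was at 690, 868, 381 and 628 CPM in DMSO and 251, 251 and 177 CPM with dTAGV-1, at −1.51 ± 0.20 (adjusted p = 1.37e-05).

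GATA6, a factor of endoderm and heart, overlapped only through DMSO replicate 3, which read 91.6 CPM against 255, 301 and 300 CPM in the other DMSO libraries. With dTAGV-1 it was at 88.6, 106 and 87.7 CPM. The change was −1.36 ± 0.27 (adjusted p = 0.00399) with replicate 3 and −1.60 (3.55e-05) without it. MN1, a transcriptional coregulator, fell from 13.5 ± 6.91 to 2.17 ± 0.9 CPM, at −2.69 ± 0.49 (adjusted p = 0.00158). ELL2, a subunit of the super elongation complex of RNA polymerase II, fell by 1.13 ± 0.22 on the log2 scale (adjusted p = 0.00309), and its call was lost without dTAGV-1 replicate 4 (0.064).

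Genes of the cell surface and matrix also fell. HS3ST1, which adds sulfate to heparan chains, was at 21.1, 49.4, 8.33 and 15.1 CPM in DMSO and 2.84, 1.98 and 1.48 CPM with dTAGV-1. The arms were apart despite the wide spread in DMSO, with −3.51 ± 0.54 (adjusted p = 0.00018). HAS2, a synthase of hyaluronan, was at 53.3, 86.7, 54.9 and 83.8 CPM against 13.3, 17 and 20.7 CPM, at −2.05 ± 0.40 (adjusted p = 0.00304). ADAMTS6, a metalloproteinase of the matrix, was at 207, 498, 285 and 525 CPM against 100, 142 and 113 CPM, at −1.68 ± 0.27 (adjusted p = 0.000267). In all 3 genes the lowest DMSO library was above the highest dTAGV-1 library. ITGA11, the alpha 11 integrin subunit that binds collagen, fell by 1.86 ± 0.39 on the log2 scale (adjusted p = 0.00641). Without DMSO replicate 3, its lowest DMSO library at 33.3 CPM, the change was −2.10, and without dTAGV-1 replicate 2 the call was lost (0.0757).

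Among regulators of growth and death, CDKN2B, the p15 inhibitor of CDK4 and CDK6, fell from 22.4 ± 4.36 to 5.28 ± 0.765 CPM, at −2.04 ± 0.31 (adjusted p = 0.00018). BMF, a protein that promotes cell death, fell by 1.93 ± 0.43 on the log2 scale (adjusted p = 0.0124), and the call was lost without DMSO replicate 1 (0.108), dTAGV-1 replicate 4 (0.106) or dTAGV-1 replicate 2 (0.0757). TIPARP, an ADP-ribosyltransferase of the aryl hydrocarbon receptor pathway, was called at −1.58 ± 0.37 (adjusted p = 0.0192). Its adjusted p without DMSO replicate 3 was 0.00632. It lost its call without DMSO replicate 1 or 4 or dTAGV-1 replicate 1, 2 or 4 (0.0511, 0.0602, 0.0677, 0.0894 and 0.13).

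Of the cytoskeletal genes named, MICAL2, which oxidises actin, fell from 514 ± 160 to 240 ± 21.2 CPM, at −1.10 ± 0.17 (adjusted p = 0.000126). CDC42EP3, an effector of CDC42, fell by 0.93 ± 0.18 (adjusted p = 0.00372). The tropomyosin gene TPM1 fell by 0.97 ± 0.20 (adjusted p = 0.00641), a call lost without dTAGV-1 replicate 4 (0.111). In sterol handling, ABCA1, the pump that exports cholesterol, was at 129, 172, 54.9 and 101 CPM in DMSO and 48.8, 44.8 and 25.1 CPM with dTAGV-1, at −1.56 ± 0.27 (adjusted p = 0.000766). The lowest DMSO library, replicate 3, stood just above the highest dTAGV-1 library. INSIG1, which holds the sterol sensor in the endoplasmic reticulum, was called at −1.18 ± 0.30 (adjusted p = 0.0426). Each library left out except DMSO replicate 3 ended that call (0.139, 0.0795 and 0.0521 for DMSO replicates 1, 2 and 4, and 0.0891, 0.13 and 0.214 for dTAGV-1 replicates 1, 2 and 4).

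Among the genes that rose were 4 members of a list of eye field and retinal factors. OTX2, required for the retina and its pigment epithelium, was at 33.6, 30.8, 21.6 and 17.5 CPM in DMSO. With dTAGV-1 it was at 69.2, 67.4 and 41.4 CPM, a change of 1.17 ± 0.21 (adjusted p = 0.0016). MITF, the master factor of pigment cells, was at 147, 213, 103 and 215 CPM in DMSO and 299, 435 and 305 CPM with dTAGV-1, at 1.01 ± 0.20 (adjusted p = 0.00316). For both genes each dTAGV-1 library was above the highest DMSO library. PAX6, a regulator of eye formation and the remaining factor of that list that rose, is outside the naming rule and was chosen after its values were seen. It went from 37.4 ± 8.09 to 75.9 ± 11 CPM, at 1.00 ± 0.19 (adjusted p = 0.00304). MAB21L1, needed for lens and eye growth, was at 40.8, 34, 43.3 and 25.3 CPM against 89.5, 78.8 and 51.2 CPM, at 1.06 ± 0.26 (adjusted p = 0.0323). OTX2 stayed called whichever library was left out. MITF and PAX6 lost their calls without dTAGV-1 replicate 2 (0.0994 and 0.0524), and MAB21L1 without DMSO replicate 2 or 4 or dTAGV-1 replicate 1 or 2 (0.0718, 0.144, 0.176 and 0.155).

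TFAP2A, the AP-2 alpha factor of neural crest and surface ectoderm, was at 38.2, 43.1, 20 and 35 CPM in DMSO and 111, 125 and 80.8 CPM with dTAGV-1, at 1.57 ± 0.27 (adjusted p = 0.000766). NR2F2, an orphan nuclear receptor, was at 203, 249, 205 and 241 CPM against 344, 461 and 363 CPM, at 0.79 ± 0.13 (adjusted p = 0.000294). Both genes had arms that did not overlap, and both stayed called whichever library was left out. KCTD16, an auxiliary subunit of GABA-B receptors, was at 46.1, 64.9, 9.99 and 43.4 CPM in DMSO and 154, 195 and 120 CPM with dTAGV-1, at 1.83 ± 0.30 (adjusted p = 0.000464). Its lowest library was DMSO replicate 3, without which the change was 1.60 (0.00051). UPP1, which splits uridine into uracil and ribose phosphate, was at 128, 110, 96.6 and 106 CPM against 259, 224 and 229 CPM, at 1.10 ± 0.15 (adjusted p = 2.84e-05).

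The rises of KYAT3, a kynurenine aminotransferase, and TMEM156, a membrane protein, were 1.23 ± 0.21 and 1.29 ± 0.22 (adjusted p = 0.000766 for each). Those 2 calls held without any 1 library. TLE4, a corepressor, rose by 1.11 ± 0.22 (adjusted p = 0.00493; 0.0566 without dTAGV-1 replicate 2), and DMRT1, a factor of testis development, by 1.20 ± 0.27 (0.0168; 0.107 and 0.0731 without dTAGV-1 replicates 1 and 2). The long noncoding RNA gene C5orf66 had the largest rise of the named genes, 1.98 ± 0.46 (adjusted p = 0.02), at 4.36 ± 0.887 CPM in DMSO, and lost its call without dTAGV-1 replicate 4 (0.188), DMSO replicate 1 (0.0689) or DMSO replicate 4 (0.0625). MYLIP, the ubiquitin ligase that marks the LDL receptor for degradation, rose by 1.68 ± 0.38 (adjusted p = 0.0176). Its call was lost without DMSO replicate 2 or 4 or dTAGV-1 replicate 1 or 2 (0.0661, 0.0602, 0.137 and 0.0898). PNPLA3, a lipase of lipid droplets, was called at 1.13 ± 0.28 (adjusted p = 0.0323), and leaving out any library but DMSO replicates 1 and 3 ended that call (0.102 and 0.148 for DMSO replicates 2 and 4, and 0.13, 0.0696 and 0.0984 for dTAGV-1 replicates 1, 2 and 4).

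Some rises rested in part on DMSO replicate 3, without which 34 genes rose, against 11 without dTAGV-1 replicate 2. MID1, a ubiquitin ligase of microtubules, was at 133 CPM there against 273, 398 and 321 CPM in the other DMSO libraries and 492, 734 and 615 CPM with dTAGV-1. It was called at 1.11 ± 0.25 (adjusted p = 0.0172) and without that library stood at 0.89 (0.056). Leaving out DMSO replicate 1 (0.0503) or dTAGV-1 replicate 2 or 4 (0.168 and 0.0633) also ended the call. ETV5, a factor of growth factor signalling, and PLOD2, a lysyl hydroxylase of collagen, were called at 0.57 ± 0.15 and 1.05 ± 0.27 (adjusted p = 0.0467 and 0.049). Without DMSO replicate 3 they stood at 0.46 and 0.91 (0.156 and 0.161). ETV5 lost its call without any library but DMSO replicate 4 (up to 0.259, without dTAGV-1 replicate 2), and PLOD2 without any but DMSO replicate 2 (up to 0.336, without dTAGV-1 replicate 2). PID1 and MIR6087, falls outside the naming rule that also rested on that library, are named after their values were seen. PID1 read 1504 CPM in DMSO replicate 3 against 23.7, 26.6 and 39.8 CPM in the other DMSO libraries, and MIR6087 read 368 CPM against 1.32, 1.59 and 6.03 CPM. Their adjusted p without it was 0.859 and 0.711, and leaving out any 1 of the dTAGV-1 libraries ended both calls too (up to 0.182 and 0.199, without dTAGV-1 replicate 2).

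**Figure D2:**
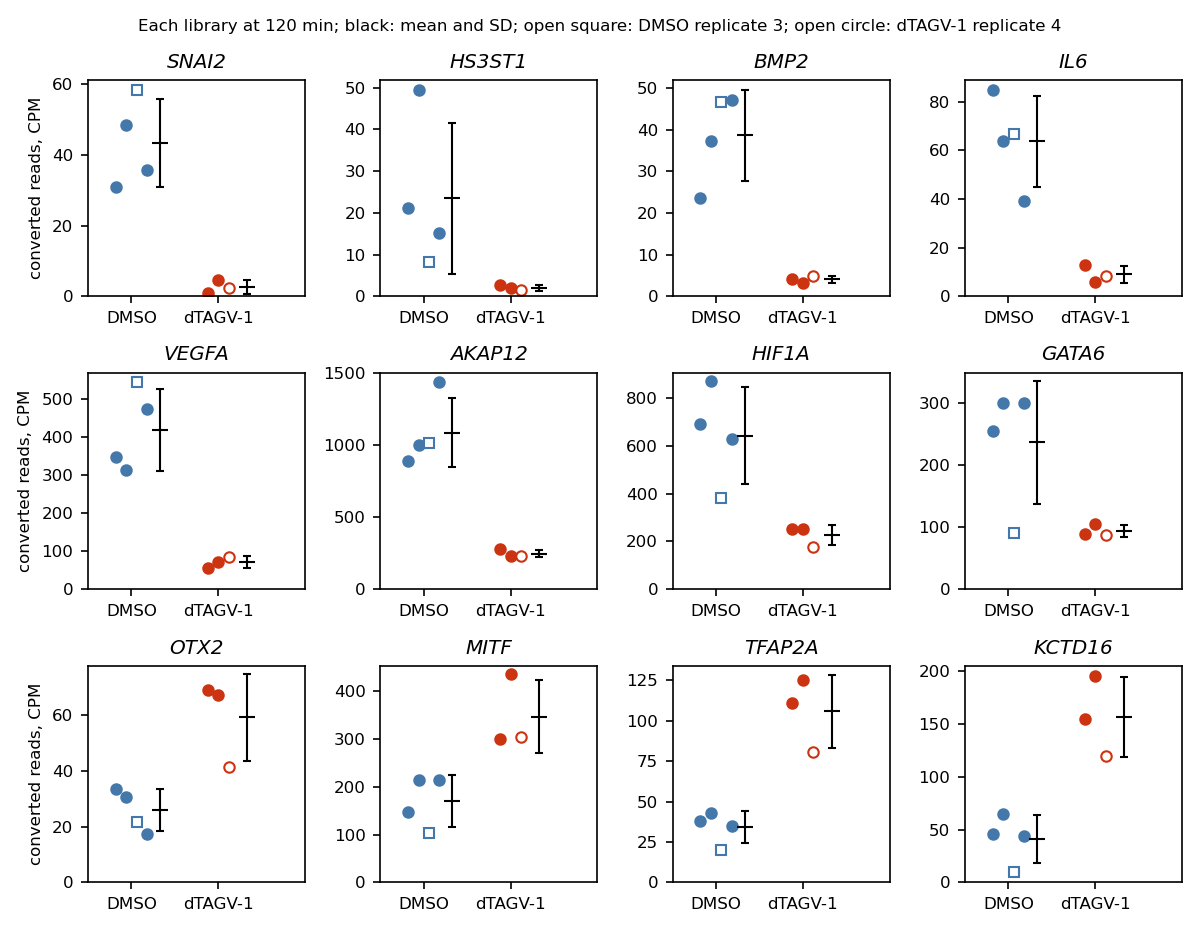
CPM of converted reads in each of the 7 libraries at 120 min for 8 genes that fell (top rows) and 4 that rose (bottom row), with the mean and SD in black, open squares for DMSO replicate 3 and open circles for dTAGV-1 replicate 4. DMSO replicate 3 is the lowest DMSO library for GATA6 at 91.6 CPM and for KCTD16 at 9.99 CPM, and the highest for VEGFA at 543 CPM.

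List members and genes of the tests of differences that are named below to spell out a count lie in part outside the naming rule and were chosen after their values were seen. The lists and their members were chosen with earlier results of these data known, so their shares and medians describe the data and are no independent support. By gene list, falls were found among inflammatory, matrix and signalling genes, and rises among eye field and retinal factors. Of 24 inflammatory and NF-kB genes 5 fell and none rose, namely IL6, IL1B, IL1A, PTX3 and the kinase gene IRAK2, with a median log2 change of −0.47 beside 0.02 over all 14202 genes, of which 0.62% fell and 0.331% rose. Leaving out DMSO replicate 3, that median was −0.26. The prostaglandin synthase gene PTGS2 stood at −2.02 ± 0.80 (adjusted p = 0.29) and the chemokine gene CXCL8 at −0.19 ± 0.86 (0.943), which shows how wide the error was for such genes. Of 30 matrix and adhesion genes 6 fell and none rose, with a median of −0.14, namely HAS2, ITGA11, ADAMTS6, COL5A2, ADAMTS12 and VCAN. Of 33 growth factors and receptors 4 fell (median −0.25), of 25 genes of G protein signalling 3 (−0.27), and of 24 TGF-beta, BMP and activin genes 3 (−0.16). None of these lists had a member that rose. IRAK2, ADAMTS12 and VCAN lost their calls when single libraries were left out (adjusted p of up to 0.147, 0.212 and 0.293).

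Mesenchymal and lineage transcription factors went both ways. Of 26 tested, 5 fell (SNAI2, MN1, GATA6, SOX9 and FOXC2) and 3 rose (TFAP2A, NR2F2 and ETV5), with a median of −0.13. SOX9 lost its call without DMSO replicate 3 (adjusted p = 0.107), as did ETV5. Other libraries ended the call of SOX9 (up to 0.227, without dTAGV-1 replicate 4) and of FOXC2 (0.0551 and 0.12 without dTAGV-1 replicates 1 and 4). Of 17 eye field and retinal factors, 7 passed the filter on low counts, and 4 of these rose. The remaining 3 stood at 0.33 for VAX2, 0.39 for MAB21L2 and 0.53 for SIX3, none past the test. Factors that are low in both arms could not be measured here.

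In the other lists the counts stand beside the same shares of all genes, 0.62% lower and 0.331% higher. Of 34 immediate early genes 1 fell, MYC (median −0.30), of 34 G1 and S phase genes 1, CDKN2B (−0.18), of 20 hypoxia genes 1, HIF1A (0.01), of 23 YAP and TEAD targets 1, F3 (−0.04), and of 30 genes of RNA polymerase II and elongation 1, ELL2 (−0.03). VEGFA, at −2.54, was counted among growth factors and not in the hypoxia list. Of 28 actin genes 2 fell (−0.27), and of 22 sterol genes 2 fell and 1 rose (−0.12). No member was called among 18 genes of cohesin, its regulators and CTCF (median 0.18), 15 of condensin (−0.07), 30 of mitosis (−0.15), 25 p53 targets (0.18), 26 stress genes (0.09), 74 ribosomal protein genes (−0.29) or 33 histone genes (−0.23). Within the cohesin list, the subunit gene STAG1 stood at 0.73 ± 0.23 (adjusted p = 0.153) and the release factor gene WAPL at 0.35 ± 0.18 (0.409). Several of these medians moved by more than 1.5 times when DMSO replicate 3 was left out. The median then was −0.13 for immediate early genes, −0.12 for actin genes, −0.12 for ribosomal protein genes and −0.04 for sterol genes. It was 0.04 for the cohesin list, −0.15 for condensin, 0.10 for p53 targets, 0.03 for hypoxia genes, −0.07 for YAP targets and −0.06 for the RNA polymerase list, and for histone genes it turned to 0.11. Counts of falls went from 1 to 2 for immediate early genes and for G1 and S phase genes, from 4 to 6 for growth factors and receptors and from 0 to 1 for ribosomal protein genes, and F3 left the YAP list with no called member. With all-read totals as library sizes the median of the condensin list was 0.00 and that of the RNA polymerase list 0.03.

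**Figure D3:**
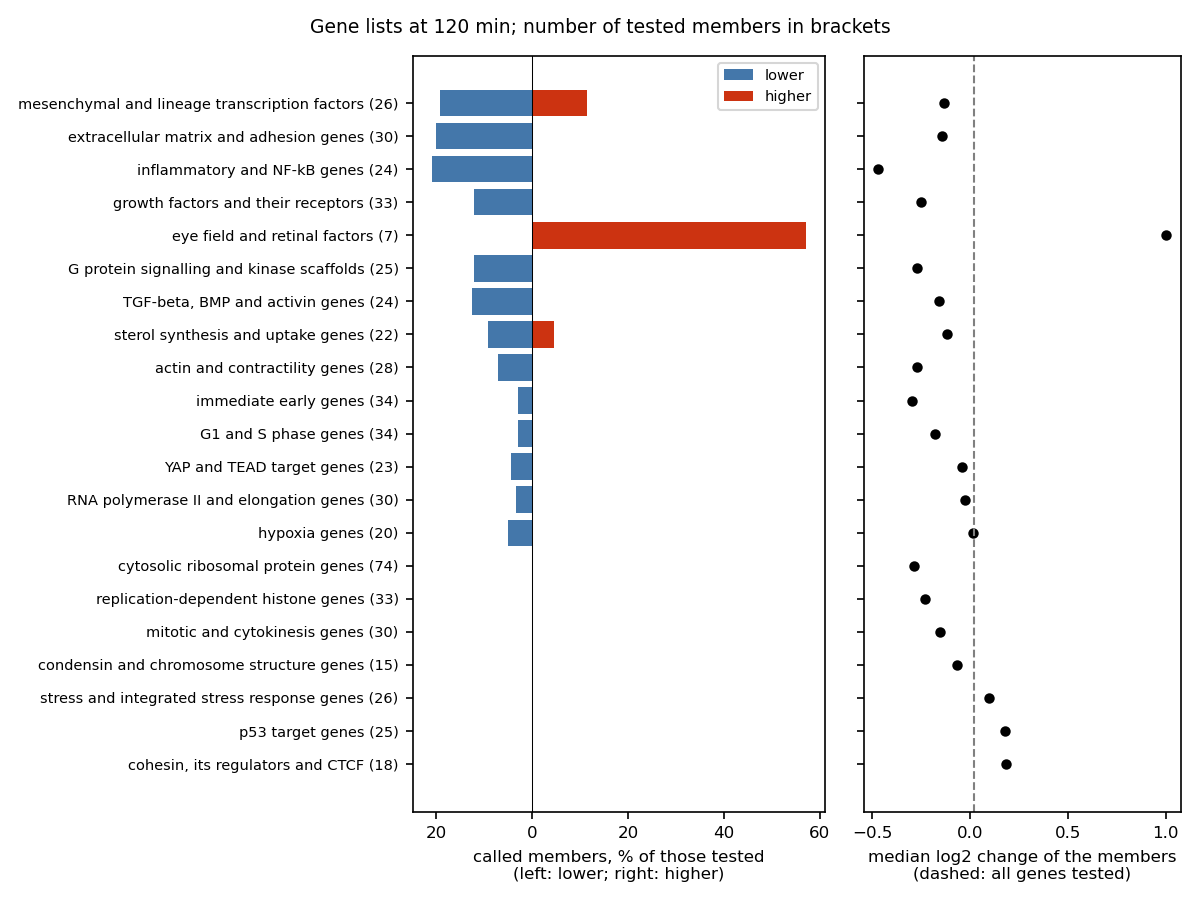
For 21 gene lists, the left panel gives the percent of tested members called lower (to the left) and higher (to the right) with dTAGV-1 at 120 min, and the right panel gives the median log2 change of the members beside that of all genes tested, 0.02. Eye field and retinal factors have the largest share called higher, 4 of 7, and the highest median of these lists, 1.00. Of the lists, 7 have no called member. Lists and members were chosen with earlier results of these data known.

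Called genes lay within 500 kb of another called gene in 8 pairs, counted from start to start. Pairs among as many genes drawn from all tested were not counted, so the number 8 is a description only. Falls and rises each had a median of 5 other tested starts within 500 kb, beside 7 for all tested genes, of which 0.951% were called. In 4 pairs the directions were opposite. IL6 fell and STEAP1B, 93.0 kb away, rose from 53.3 ± 7.12 to 99.8 ± 2.44 CPM (log2 change 0.89 ± 0.15, adjusted p = 0.000552). TIPARP fell and the RNA gene LINC00886, 144 kb away, was called at 1.81 ± 0.44 (adjusted p = 0.0268), and CDC42EP3 fell and CYP1B1-AS1, 335 kb away, rose by 1.27 ± 0.25 (0.00387). PTX3 fell and VEPH1 was called at 0.83 ± 0.20 (0.0313). PTX3 lies inside VEPH1 on the other strand, and as the strand setting of the counting is not given in the sources used here, their reads may be mixed. LINC00886 lost its call without any 1 library other than DMSO replicate 3 (adjusted p of up to 0.141, without dTAGV-1 replicate 2), and VEPH1 without DMSO replicate 3 or 1 or dTAGV-1 replicate 1 or 2 (0.0914, 0.08, 0.0798 and 0.259).

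The other 4 pairs moved the same way. IL1A and IL1B lie 52.3 kb apart. SAMD3 and TMEM200A start 0.309 kb apart on opposite strands and stood at −1.63 ± 0.39 and −1.62 ± 0.26 (adjusted p = 0.027 and 0.000378). HIF1A overlaps RP11-618G20.1 on the same strand, so their reads may be shared, and PLOD2 lies beside RP11-274H2.3. SAMD3, RP11-618G20.1 and RP11-274H2.3 each lost their call without 4 of the 7 libraries, with adjusted p of up to 0.171 (without dTAGV-1 replicate 2), 0.142 (without dTAGV-1 replicate 1) and 0.22 (without dTAGV-1 replicate 2). RP11-274H2.3 was the one of them for which DMSO replicate 3 was among these (0.0534).

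Few other tested genes lay near many of the called genes. At most 3 other tested genes started within 500 kb for 36.4% of the 88 falls, 29.8% of the 47 rises and 20.1% of all genes tested. Their median lengths were 40.4, 94.2 and 37.4 kb. These are descriptions, since level and length were not matched.

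Promoter windows were read to show what sequence the called genes start from. RefSeq windows on GRCh38.p14, from 250 bases before to 50 after a start, matched 61 of the 88 genes that fell (108 windows, as a gene can have several starts) and 34 of the 47 that rose (76 windows), beside 13909 windows of 9268 tested genes. The 4 windows below belong to genes with 1 listed start, 3 that fell (IL6, the largest of the 4 in size of change, ADAMTS6 and ABCA1) and 1 that rose (MAB21L1). Capitals mark matches to AP-1, CRE or TATA letters on either strand, and the window of IL6 holds none. The sequences run 5′ to 3′ along the gene.
IL6, chr7:22726950-22727249, plus strand: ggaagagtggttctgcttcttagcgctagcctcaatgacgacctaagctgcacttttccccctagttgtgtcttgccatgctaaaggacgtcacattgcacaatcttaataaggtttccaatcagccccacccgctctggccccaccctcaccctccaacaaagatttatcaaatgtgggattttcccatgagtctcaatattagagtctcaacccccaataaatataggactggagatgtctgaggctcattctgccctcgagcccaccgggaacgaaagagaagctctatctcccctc
ADAMTS6, chr5:65481871-65482170, minus strand: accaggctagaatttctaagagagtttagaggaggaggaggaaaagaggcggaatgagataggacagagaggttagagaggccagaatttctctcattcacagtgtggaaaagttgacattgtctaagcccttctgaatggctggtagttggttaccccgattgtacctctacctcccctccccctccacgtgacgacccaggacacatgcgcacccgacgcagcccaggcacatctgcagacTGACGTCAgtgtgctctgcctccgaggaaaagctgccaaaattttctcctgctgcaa
ABCA1, chr9:104928106-104928405, minus strand: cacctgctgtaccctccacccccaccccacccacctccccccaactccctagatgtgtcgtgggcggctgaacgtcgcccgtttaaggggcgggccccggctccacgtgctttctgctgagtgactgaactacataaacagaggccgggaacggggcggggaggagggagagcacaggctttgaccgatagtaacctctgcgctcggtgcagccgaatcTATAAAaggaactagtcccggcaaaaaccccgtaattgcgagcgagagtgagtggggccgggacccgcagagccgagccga
MAB21L1, chr13:35476640-35476939, minus strand: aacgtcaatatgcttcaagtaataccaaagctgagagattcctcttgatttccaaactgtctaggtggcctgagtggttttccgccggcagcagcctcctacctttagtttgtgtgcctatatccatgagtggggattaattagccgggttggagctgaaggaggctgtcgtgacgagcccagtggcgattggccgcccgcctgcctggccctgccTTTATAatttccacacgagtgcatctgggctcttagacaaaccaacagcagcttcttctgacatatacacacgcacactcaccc

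The TATA matches of ABCA1 and MAB21L1 began at positions −31 and −34 from the start, and the CRE match of ADAMTS6 at position −7. Matches were searched on both strands, with overlaps allowed. AP-1 letters (TGANTCA) were found in 9.26% of windows of genes that fell, 9.21% of those that rose and 5.44% of all tested. TATA letters (TATAAA) were in 12%, 9.21% and 6.62%, and CRE letters (TGACGTCA) in 1.85%, 3.95% and 2.78%. For the hypoxia element (ACGTG) the shares were 31.5%, 18.4% and 25.1%, for the TEAD site (GGAATG) 10.2%, 18.4% and 11.6%, and for the GC box (GGGCGG) 55.6%, 48.7% and 63.9%. A CTCF core motif was in no window of a called gene and in 0.338% of all. A match describes the letters in the window and shows neither a site in use nor its absence.

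After release, many of the genes that fell were genes whose new RNA built up late in DMSO. Relative to DMSO at 0 min, on the scale log2(mean CPM + 0.5), their median in DMSO was 0.02 at 30 min, 0.10 at 60 min, 0.93 at 90 min and 1.40 at 120 min. With dTAGV-1 it was −0.18 at 0 min, −0.10 at 60 min, 0.08 at 90 min and −0.04 at 120 min. More than 1 log2 unit above DMSO at 0 min were 60 of the 88 genes (68.2%) in DMSO at 120 min and 9 (10.2%) with dTAGV-1, beside 10.2% and 9.91% of all genes tested. The 47 genes that rose had medians of 0.47 and 0.25 in DMSO at 90 and 120 min and of 0.95 and 1.16 with dTAGV-1. The 120 min libraries chose these genes, so the values at 120 min carry no test.

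SNAI2 shows the late rise, at 2.25 ± 0.581 CPM (n = 3) in DMSO at 0 min, 4.51 ± 1.85 at 60 min (n = 4), 25.1 ± 9.17 at 90 min (n = 4) and 43.3 ± 12.4 at 120 min (n = 4). With dTAGV-1 its means stayed between 1.52 and 2.92 CPM at all 5 times. HAS2 went from 10.7 ± 5.43 CPM at 60 min to 36.4 ± 8.08 and 69.7 ± 18 CPM in DMSO, and from 8.47 ± 5.89 to 16.6 ± 11.6 and 17 ± 3.72 CPM with dTAGV-1. OTX2 and TFAP2A followed another course. In DMSO, OTX2 was at 14.2 ± 6.58 CPM at 0 min, 60.4 ± 2.8 at 60 min and 26.8 ± 3.15 at 90 min. With dTAGV-1 it was already at 29.3 ± 2.05 CPM at 0 min (n = 4), and at 74.2 ± 5.69 CPM at 60 min and 60.1 ± 10.1 at 90 min. TFAP2A went from 65.2 ± 22.3 to 41.4 ± 12.1 CPM between 60 and 90 min in DMSO, and from 82.9 ± 17.5 to 93.6 ± 14.4 CPM with dTAGV-1. The DMSO means of both genes were thus highest at 60 min, while with dTAGV-1 that of TFAP2A was higher at 90 than at 60 min.

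**Figure D4:**
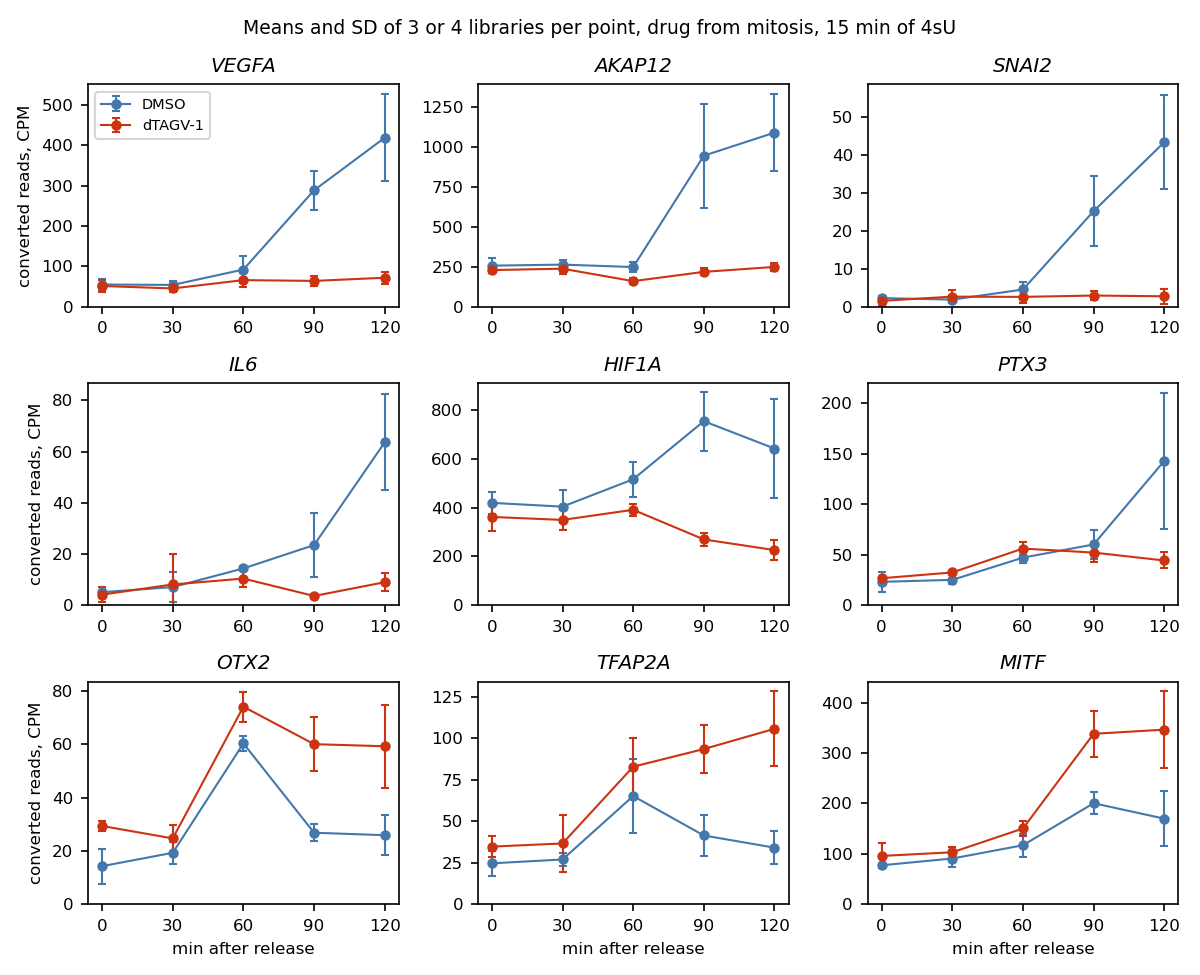
Mean CPM of converted reads against time after release, in min, for 6 genes that fell and 3 that rose (OTX2, TFAP2A and MITF), with DMSO in blue, dTAGV-1 in red and bars for the SD of 3 or 4 libraries. VEGFA in DMSO goes from 92 CPM at 60 min to 419 CPM at 120 min, while with dTAGV-1 it stays between 45.2 and 71.7 CPM.

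Whether the drug effect at 120 min differed from that at 60 min was tested as an interaction in the same fit. Of 14202 genes, 6 passed (0.0422%). All 6 had a lower log2 change at 120 min than at 60 min, which means a larger fall at 120 min. They were PLPP3 with a difference in log2 change of −2.34 ± 0.44, CDKN2B with −2.11 ± 0.41, VEGFA with −2.06 ± 0.34, PTX3 with −1.92 ± 0.35, AKAP12 with −1.5 ± 0.26 and NET1, an exchange factor of RhoA, with −1.11 ± 0.22 (adjusted p = 0.0205, 0.0356, 0.0109, 0.0168, 0.0136 and 0.0437). Without DMSO replicate 3, 22 genes passed, these 6 among them, along with HIF1A at −1.31 ± 0.23, GATA6 at −1.5 ± 0.30 and TGFBR2 at −1.27 ± 0.25 (adjusted p = 0.00678, 0.0209 and 0.0209). Without dTAGV-1 replicate 4, VEGFA alone of the 6 passed (adjusted p of 0.0714 for AKAP12 and PTX3, 0.126 for PLPP3, 0.152 for CDKN2B and 0.336 for NET1). CDKN2B and NET1 also lost their calls without DMSO replicate 2 (0.0585 for each), DMSO replicate 4 (0.0805 and 0.138) or dTAGV-1 replicate 1 (0.0737 and 0.117), and CDKN2B without dTAGV-1 replicate 2 (0.117). PLPP3 did so without DMSO replicate 2 (0.0585) or dTAGV-1 replicate 1 (0.0737), and PTX3 without DMSO replicate 4 (0.0805) or dTAGV-1 replicate 2 (0.0571). Against 90 min no gene passed with edgeR. An unadjusted p under 0.05 was found for 525 of 14202 genes, below the share of 0.05 that arises without any effect. DESeq2 was not run for this difference.

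The same genes were read in libraries that the comparison did not use. With 4sU for the whole 120 min, 407 of 16567 genes passed (2.46%), 339 lower (2.05%) and 68 higher (0.41%). Of the 88 genes that fell after the 15 min label, 74 fell there too (84.1%, beside 2.34% of all genes tested in both), and 87 had the same sign. Of the 47 that rose, 18 rose there (38.3%, beside 0.44%), and 45 had the same sign. Of all genes tested in both, 50.1% had a log2 change below 0 there and 49.9% above 0. None of the 88 falls or 47 rises was called the other way. AKAP12 stood at 2175, 3533 and 4456 CPM in DMSO and 267, 366 and 473 CPM with dTAGV-1, a change of −3.20 (adjusted p = 7.83e-05). SNAI2, IL6 and HS3ST1 fell by 3.04, 3.07 and 3.28 on the log2 scale. OTX2 and TFAP2A rose by 1.15 and 1.14 (adjusted p = 0.013 and 0.00148), while MITF, at 0.38, did not pass (0.49).

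When dTAGV-1 was first given at release, 186 of 13923 genes passed at 120 min (1.34%), 162 lower (1.16%) and 24 higher (0.172%). Of the 88 falls 49 fell there (55.7%, beside 1.22% of all), and of the 46 rises tested in both 5 rose (10.9%, beside 0.167%). The sign was the same for 84 of 88 and 46 of 46, beside 49.9% of all genes below 0 and 50.1% above 0. BMP2 stood at 56, 71.2 and 50 CPM in DMSO and 12.5, 15.7 and 13.4 CPM with dTAGV-1, and fell by 2.07 on the log2 scale (adjusted p = 3.67e-05). ITGA11 and TMEM200A fell by 2.42 and 2.16. OTX2 rose by 1.29 and MAB21L1 by 1.17 (adjusted p = 0.00628 and 0.000461), while TFAP2A stood at 0.16, MYC at −0.46 and AKAP12 at −0.46, none past the test.

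**Figure D5:**
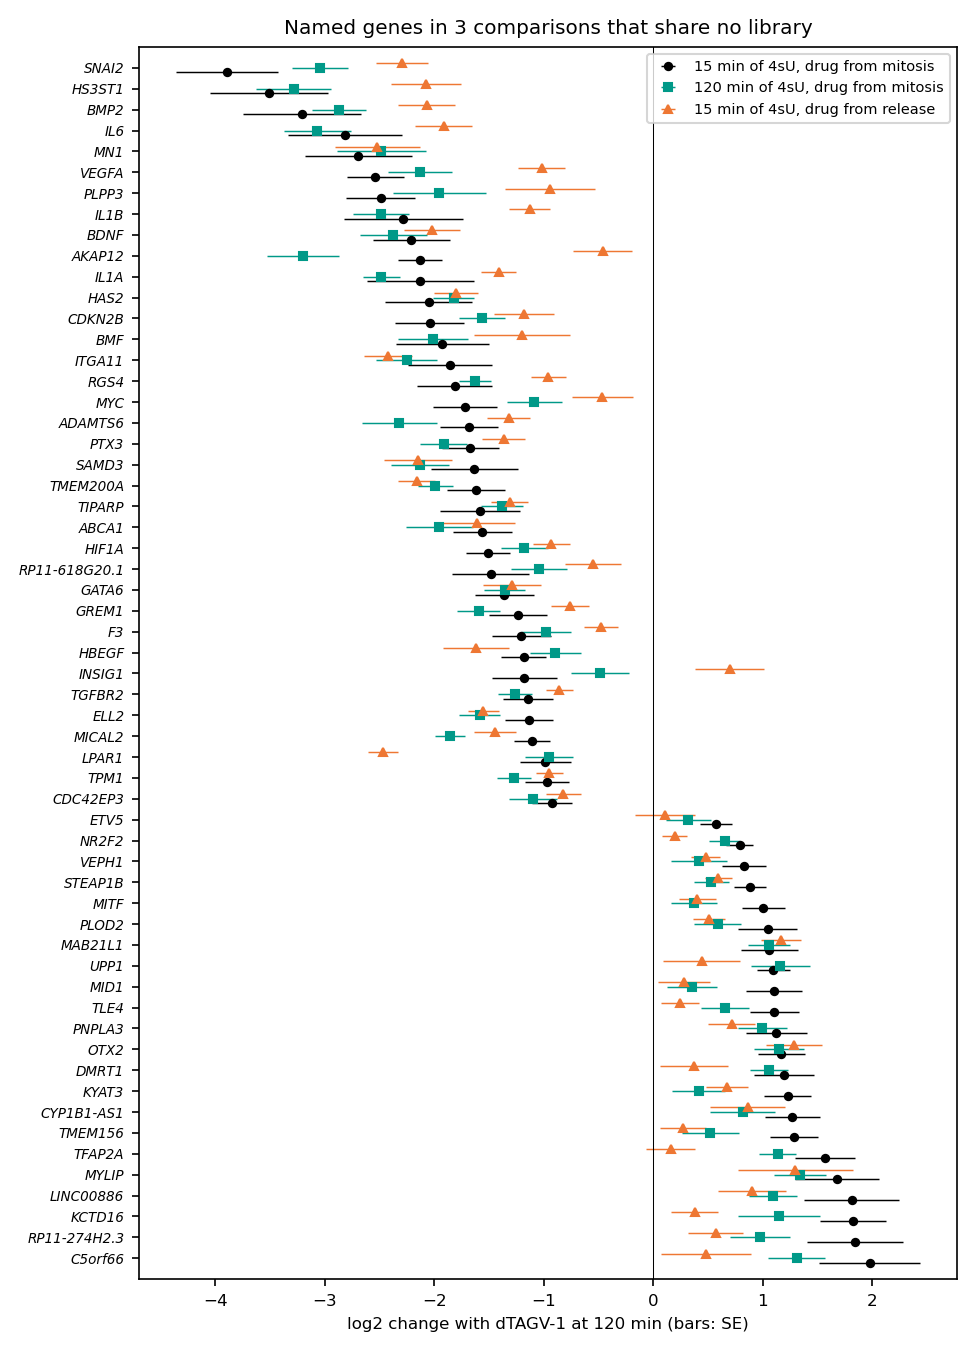
Log2 change with dTAGV-1 at 120 min, with SE as bars, for the 58 called genes named by rule, in the short-label mitosis libraries (black circles), the long-label mitosis libraries (green squares) and the short-label release libraries (orange triangles). AKAP12 is at −2.13 in black with a release value of −0.46, a difference that passed its test, and TFAP2A at 1.57 with a release value of 0.16, a difference that did not, and INSIG1 is the one named fall with a release value above 0, at 0.70.

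The difference between drug from mitosis and drug from release was tested directly over both series, which share no library at 120 min. Each drug timing had its own series, so timing and series cannot be told apart. Short-label libraries at 120 min had 3.05% to 4.23% converted reads in the mitosis series and 6.15% to 9.07% in the release series. Of 15131 genes 5 passed (0.033%). The log2 change of the mitosis series minus that of the release series was negative for 1 (0.00661%) and positive for 4 (0.0264%). AKAP12 differed by −1.66 ± 0.33 (adjusted p = 0.0277), a call lost without DMSO replicate 4 (0.107), dTAGV-1 replicate 2 (0.163) or dTAGV-1 replicate 4 (0.0554). In CPM of the joint fit it went from 1018 ± 234 to 235 ± 26.2 with drug from mitosis and from 879 ± 41.5 to 643 ± 192 with drug from release. Positive differences were those of TRPC4, a calcium channel, at 1.82 ± 0.32, and OXTR, the oxytocin receptor, at 1.58 ± 0.32 (adjusted p = 0.0103 and 0.0301). EFNB2, a ligand of Eph receptors, differed by 1.5 ± 0.28 and LPAR1 by 1.47 ± 0.30 (0.0117 and 0.0332). A positive difference was no stronger effect here, since all 4 genes fell with drug from release and fell less or rose with drug from mitosis. LPAR1 went from 222 ± 86.8 to 115 ± 13.3 CPM with drug from mitosis and from 662 ± 97.6 to 121 ± 12.8 CPM with drug from release, so its DMSO levels differed as well. OXTR went from 19.2 ± 4.86 to 16.9 ± 3.97 CPM with drug from mitosis and from 102 ± 11.5 to 32.7 ± 10.3 CPM with drug from release. TRPC4 went from 15.6 ± 2.38 to 21.7 ± 2.83 CPM with drug from mitosis and from 79.1 ± 1.79 to 30.8 ± 4.63 CPM with drug from release. EFNB2 went from 54.8 ± 10.1 to 92.8 ± 14.3 CPM with drug from mitosis and from 115 ± 16.6 to 67.4 ± 7.46 CPM with drug from release. The DMSO levels of all 4 genes were thus higher in the release series. Leaving out DMSO replicate 3, 4 genes passed and LPAR1 did not (0.0683). Without dTAGV-1 replicate 2 none passed, with 616 of 15715 genes at an unadjusted p under 0.05, below the share of 0.05 that arises without any effect. The adjusted p without that library was 0.163 for AKAP12, 0.105 for EFNB2 and TRPC4, 0.177 for LPAR1 and 0.226 for OXTR. OXTR also lost its call without DMSO replicate 1, 2 or 4 or dTAGV-1 replicate 1 (0.129, 0.0765, 0.0554 and 0.212), and LPAR1 without DMSO replicate 1 or dTAGV-1 replicate 1 (0.117 and 0.181). TFAP2A and MYC, called after drug from mitosis and not after drug from release, differed between the series by 1.40 ± 0.37 and −1.25 ± 0.40 and did not pass the test of the difference (adjusted p = 0.554 and 1).

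With all reads counted in place of converted reads, 44 of 27253 genes passed (0.161%), 40 lower (0.147%) and 4 higher (0.0147%), and 33 of the 88 falls and 3 of the 47 rises were among them. Leaving out DMSO replicate 3 brought in 47 further falls and 2 rises. In the 47 falls that library read below the mean of the other DMSO libraries. RUNX2, the factor of bone formation, was at 74.9 CPM there against 303 ± 121 CPM (n = 3) in the other DMSO libraries and 124 ± 25.5 CPM (n = 3) with dTAGV-1. Its change was −1.02 (adjusted p = 0.0683) with replicate 3 and −1.30 ± 0.21 (0.000332) without it. DUSP10, a phosphatase of stress kinases, was at 58.3 CPM there against 203 ± 50.9 CPM and 57.5 ± 14.9 CPM, and went from −1.57 (0.0783) to −1.82 ± 0.41 (0.0131). The cell cycle kinase gene CDK6 was also among the falls gained. These genes were chosen after their values were seen.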

How the data were processed

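The authors deposited, per sample, counts of all reads and of reads with T-to-C conversions for each gene, per the file headers, with gene coordinates on hg38. The submitters' processing notes name HISAT, Picard and HTSeq. Versions, the strand setting and the rule that calls a read converted are not given in the sources used here. Of 92 libraries 72 were read, and 48727 of 48926 named genes were kept, leaving out genes of the Y chromosome and the X inactivation centre. Coordinates are 1-based, so 1 was added to each start.

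Converted counts were analysed in R 4.3.3 with edgeR 4.0.16 (filterByExpr with a minimum count of 10 and total of 15, TMM, glmQLFit and glmQLFTest, Benjamini-Hochberg, adjusted p under 0.05). The short-label mitosis series (36 libraries, 10 groups) was fitted together, which shares 1 estimate of spread. The joint fit with the release series held 60 libraries, the long-label fit 12 and the release fit 24. Named genes were the 14 largest falls and rises with a mean log2(CPM + 0.5) of at least 3, arms that did not overlap and a symbol that is no clone name, up to 3 called members per direction of each list, called genes within 500 kb of another, and NIPBL. The members, lists and rules were chosen with earlier results of these data known. Each replicate was left out in turn, and normalization, filter, block, samples and tool (DESeq2 1.42.0) were varied. Figures were drawn with matplotlib 3.10.9.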

Additional observations from a re-analysis of the deposited data

Results flagged for a closer look

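In DMSO replicate 3 the share of converted reads in the 10 highest genes, 13.5%, lay far above the other DMSO libraries, and its gap was 0.969 of the range of the group, past Dixon's limit for 4 libraries. This was 1 of 65 values tested in this way, of which chance would mark about 1 in 20. That DMSO replicate 3 holds many reads in few genes was known before this test, so passing the limit adds no support. The fits include this library, and an alternative leaves it out.

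The effect of dTAGV-1 differed between 120 and 60 min for PLPP3 (−2.34 in log2), CDKN2B (−2.11), VEGFA (−2.06), PTX3 (−1.92), AKAP12 (−1.5) and NET1 (−1.11), by the interaction test of edgeR. Between drug from mitosis and drug from release it differed for AKAP12 (−1.66), TRPC4 (1.82), OXTR (1.58), EFNB2 (1.5) and LPAR1 (1.47), by the same kind of test. The cause of these differences was not tested, and drug timing cannot be told apart from the series.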

How the results depend on the processing

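No named gene turned its direction under the alternatives run, while the median of the histone list turned from −0.23 to 0.11 without DMSO replicate 3, and those of the RNA polymerase II list from −0.03 to 0.03 and of the condensin list from −0.07 to 0.00 with all-read totals, and the cause of the changes below was not tested. The 135 calls at 120 min were 78 to 168 when 1 library was left out. They were 70 with all-read totals as library sizes (which moved the median of all genes from 0.02 to 0.08), 482 with no filter on low counts, 38 in a fit of the 7 libraries alone and 44 when every read was counted. DESeq2 gave 202, DESeq2 size factors 138, a log2 change of at least 1 gave 100, and leaving out DMSO replicate 3 and dTAGV-1 replicate 4 together, chosen after seeing the data, gave 106. Same-numbered libraries correlated in their deviations at 0.355, 0.356 and 0.0113 for replicates 1, 2 and 4, beside −0.343 to 0.314 for pairs with other numbers. The values of replicates 1 and 2 were thus the highest of all pairs. That of replicate 4 was not, so the numbers were not taken to pair the libraries. A replicate block gave 212 calls at 120 min, and 601 with replicates 1, 2 and 4 alone. With the block, the difference from 60 min gave 20 calls, that from the release series 7, the long label 833 and the release series 314. The 6 calls of the difference from 60 min were 1 to 22 with 1 library left out and 0 against 90 min. The 5 of the difference from the release series were 0 to 6, and 1 with all-read totals. The 407 calls of the long label were 225 to 404, and the 186 of the release series 115 to 175. Of the 59 named genes, 59 kept their side of the threshold with DESeq2 and with the block, 53 without DMSO replicate 3, 42 without both libraries, 39 with all-read totals, 24 in the 7 libraries alone and 21 with all reads. With 0.644 M converted reads in the shallowest library, genes at a few CPM rest on few reads.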

Other observations

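Called genes outside the naming rule for size included further signalling genes, named here after their values were seen. The Notch ligand gene JAG1 stood at 183 ± 56.2 CPM (SD, n = 4) in DMSO and 75.9 CPM with dTAGV-1 (mean, n = 3), a log2 change of −1.28 ± 0.22 (SE), and STC1, the secreted stanniocalcin, at 348 ± 34.6 and 123 CPM, a change of −1.49 ± 0.19. NR3C1, the glucocorticoid receptor, was called at −1.19 ± 0.25, a call lost without 1 library (adjusted p by edgeR = 0.0653).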
